A study of Homo sapiens with 6 samples.

Results

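The genes described here are the 37 protein-coding genes, of 21776 genes in the count table, whose symbol begins with TIMM or TOMM and a digit or is one of 12 other named components of the protein import machinery of mitochondria (TIMMDC1, PAM16, DNAJC19, GRPEL1, GRPEL2, PMPCA, PMPCB, SAMM50, MTX1, MTX2, CHCHD4 and GFER). The rule uses names and no values, but was set with earlier results of these data known. RNA sequencing had been performed on SCC25, an established human cell line derived from an oral squamous cell carcinoma, with 3 libraries from cells held under hypoxia and 3 from cells held under normoxia. Hypoxia was 12 h in a tri-gas incubator at 1% O2 and 5% CO2 with nitrogen as the balance, normoxia was 12 h in humidified 5% CO2 and 95% air, and all cells were wild type and grown in DMEM/F12 with 10% fetal bovine serum. The labels name SCC25 whereas a figure legend of the study names SCC9, another oral line. All libraries come from a single line. The normoxia libraries (replicates 1, 2 and 3) held 37278703, 29637189 and 29981208 counts in total, and the hypoxia libraries 30186813, 36076088 and 32272716. The labels do not say that the replicates were separate cultures, so p-values measure the spread between these libraries, which may be technical. Normoxia replicate 3 lay nearer to the hypoxia libraries than the other normoxia libraries did for many of the genes described. It was the highest of the 3 for 13 of 15 genes of a hypoxia response list (CA9, a carbonic anhydrase, was at 20.8, 17.0 and 43.2 FPKM, a level scaled to the length of the gene and the total count of the library, in normoxia replicates 1, 2 and 3, against 171, 185 and 190.3 under hypoxia) and the lowest of the 3 for 26 of the 35 import genes tested. The same shares over all genes tested are not given here, so a trait of these genes and an offset of the whole library cannot be told apart. Without normoxia replicate 3, 31 import genes fell in place of 30 and their median log2-fold change was -0.85 in place of -0.77. In bulk RNA, fewer cells making a transcript and less transcript per cell cannot be told apart.

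Nearly all mitochondrial proteins are encoded in the nucleus, made in the cytosol and imported through the TOM complex, the common gate of the outer membrane. From there, the SAM complex inserts barrel-shaped outer membrane proteins, the small TIM chaperones and the TIM22 complex deliver carrier proteins to the inner membrane, the TIM23 complex and its HSPA9-driven motor take proteins with a presequence into the matrix, where the processing peptidase removes the presequence, and the MIA relay traps small proteins in the intermembrane space by forming disulfide bonds. Cells under low oxygen are known for a shift from respiration to glycolysis, in which mitochondrial mass and composition change.

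The question was how transcripts of this machinery differed between hypoxia and normoxia. Of the 37 genes, 35 passed edgeR's filter on low counts, and 30 of these fell under hypoxia, 0 rose and 5 (TOMM20, TOMM7, TIMM17B, PMPCB and GFER) did not pass edgeR's quasi-likelihood test at a Benjamini-Hochberg adjusted p-value under 0.05. Among all 14255 genes tested, 38.5% fell and 39.2% rose by the same rule (77.8% in either direction). The median log2-fold change was -0.77 over the 35 import genes, with a range from -1.97 to 0.11, against 0.02 over all genes tested. A log2-fold change below -1 was seen for 13 import genes, compared with 10.5% of all genes tested. In CPM (counts scaled to the size of the library), all hypoxia libraries stood below all normoxia ones for 30 of the 35 genes, the 30 that were called, where the background was 39.9%. Hypoxia lay above normoxia without overlap for 1 gene, PMPCB, where the background was 40.6%, and the other 4 overlapped. No import gene rose at an unadjusted p under 0.05 in edgeR either, and the DESeq2 Wald test called 0 higher after adjustment and 1 before it. With only genes of at least 10 counts in every library kept, a choice that moved the median of all genes up by 0.077, TOMM7 and PMPCB passed as higher (log2-fold changes of 0.16 and 0.19), and the 3 limma fits on FPKM called 1 or 2 import genes higher and 27 or 28 lower.

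**Figure D1:**
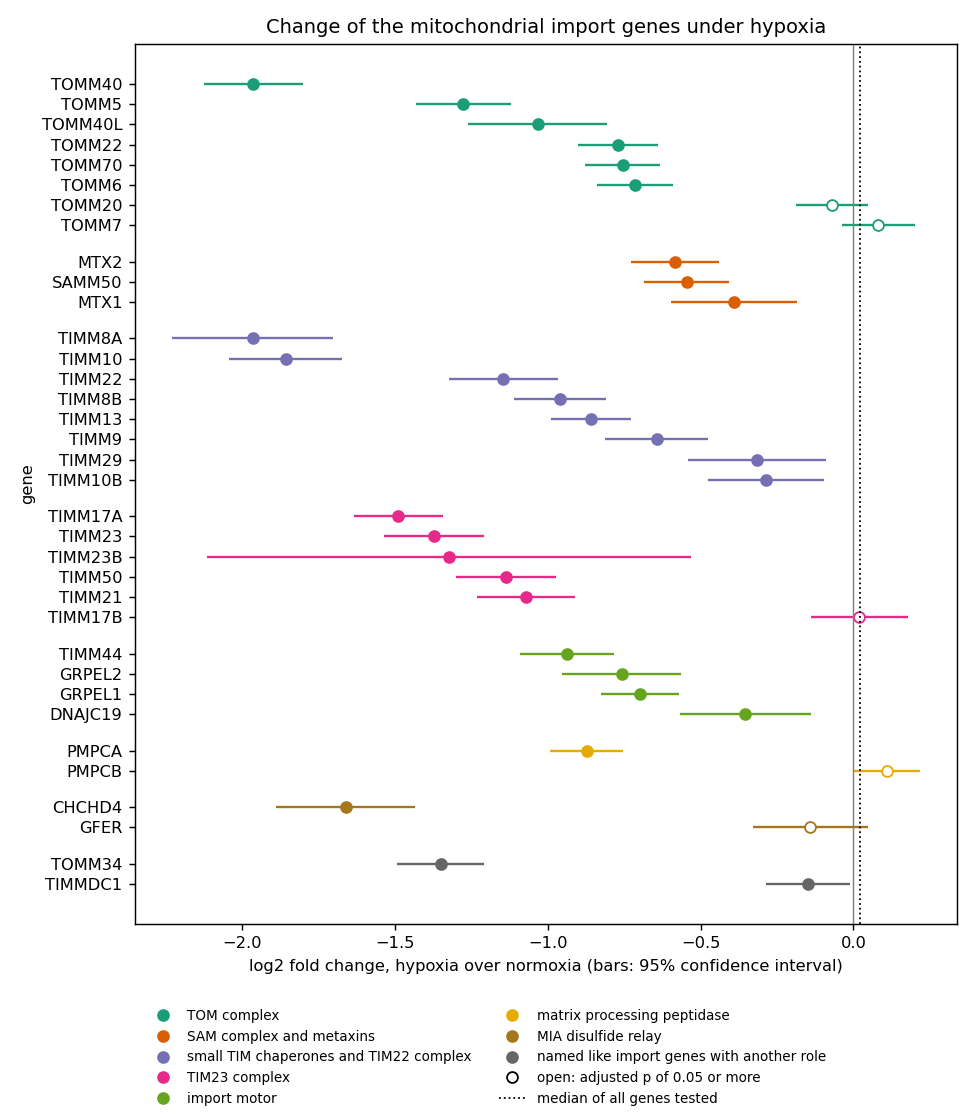
Log2-fold change of each of the 35 tested import genes, hypoxia over normoxia, on the horizontal axis, with bars for the 95% confidence interval, grouped and coloured by complex and with open circles for genes with an adjusted p of 0.05 or more. The 30 filled circles lie to the left of 0, from TIMM8A at -1.97 to TIMMDC1 at -0.15, and the 5 open circles lie between -0.14 and 0.11, near the dotted median of all genes tested (0.02).

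Promoter sequence was available from RefSeq (GRCh38.p14) for 34 of the 37 genes, and not used for GRPEL1, TOMM5 and TIMM8B. The 7 letters CCGGAAG, the core recognised by ETS factors such as GABP, whose targets are known to include many nuclear genes of mitochondria, were looked for on both strands in the 250 bases before each start site. They were found in 12 of the 34 import promoters (35.3%), compared with 8.52% of all 35116 promoters and 16.2% of those of the 10162 tested coding genes. Of these 12, 10 belonged to the 27 fallen genes with a promoter and 2, TOMM20 and PMPCB, to the 5 that were not called, so the letters were present on both sides of the call. The 12 include both TIMM23 and TIMM23B, whose promoters are nearly alike. The share in promoters of other mitochondrial genes is not given here, so the letters are not shown to be particular to import genes. A stretch of 90 bases is shown for 4 fallen genes (TOMM70, TIMM10, TIMM23 and its near copy TIMM23B) and for the 2 uncalled genes, read 5′ to 3′ along the gene's strand, with the match in capitals (CCGGAAG or its complement CTTCCGG). CHCHD4 is shown as the 1 import promoter with the 10-letter palindrome recognised by NRF1, a regulator of respiratory genes, which its capitals mark.
TOMM70: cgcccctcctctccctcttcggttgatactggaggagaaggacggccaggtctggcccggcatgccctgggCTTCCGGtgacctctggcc
TIMM10: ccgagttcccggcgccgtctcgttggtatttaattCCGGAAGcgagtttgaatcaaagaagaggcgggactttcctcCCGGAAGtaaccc
TIMM23: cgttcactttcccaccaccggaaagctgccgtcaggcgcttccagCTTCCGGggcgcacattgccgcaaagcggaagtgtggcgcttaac
TIMM23B: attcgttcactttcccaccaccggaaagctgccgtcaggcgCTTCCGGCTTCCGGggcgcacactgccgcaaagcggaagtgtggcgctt
TOMM20: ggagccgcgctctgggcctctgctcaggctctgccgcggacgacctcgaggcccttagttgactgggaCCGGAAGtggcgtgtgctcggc
PMPCB: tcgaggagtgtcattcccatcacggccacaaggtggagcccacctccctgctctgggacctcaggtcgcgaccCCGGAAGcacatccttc
CHCHD4: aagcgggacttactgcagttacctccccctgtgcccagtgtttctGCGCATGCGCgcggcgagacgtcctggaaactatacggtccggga
The stretches lie at chr3:100401090-100401179, minus strand (TOMM70), chr11:57530755-57530844, minus strand (TIMM10), chr10:45972396-45972485, plus strand (TIMM23), chr10:49941963-49942052, plus strand (TIMM23B), chr1:235128838-235128927, minus strand (TOMM20), chr7:103297345-103297434, plus strand (PMPCB) and chr3:14124978-14125067, minus strand (CHCHD4). All lie before the start site of the RefSeq table. The NRF1 letters were in 2.94% of import promoters and 1.03% of all promoters (1.91% of the tested coding ones). Other letters stood near their share in the tested coding promoters or below it: ACGTG, the core of the hypoxia response element, in 7 import promoters (20.6%, against 23.3%), CCAAT in 11 (32.4%, against 35.4%), the GC box GGGCGG in 20 (58.8%, against 67.8%) and the E-box CACGTG, which contains ACGTG, in 1, that of TOMM20 (2.94%, against 8.84%). A match describes the letters and not a bound site.

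In the TOM complex, 6 of 8 tested genes fell and 2 did not pass the test, with a median log2-fold change of -0.76. TOMM40, the barrel that forms the channel, was at 131, 134 and 108 FPKM in replicates 1 to 3 of normoxia and at 34.9, 32.0 and 32.0 in those of hypoxia. Normoxia replicate 3 was the lowest of its condition and still far above every hypoxia library, and TOMM40 fell 3.90-fold, with a log2-fold change of -1.96 ± 0.076 (SE, n = 3 per condition, adjusted p = 4.44e-13). TOMM5, a small subunit that stabilises the channel, was at 145, 144 and 134 FPKM under normoxia and 62.3, 53.1 and 65.4 under hypoxia, and fell with a log2-fold change of -1.28 ± 0.074. TOMM40L, a channel-like relative of TOMM40 at a far lower level (8.92 FPKM on average under normoxia), fell by a log2-fold change of -1.03 ± 0.11. Of the receptors, TOMM22 and TOMM70 fell and TOMM20 did not pass the test. TOMM70, which receives carrier precursors from cytosolic chaperones, was at 23.9, 25.3 and 23.2 FPKM under normoxia and at 14.4, 14.9 and 14.9 under hypoxia, and TOMM22, the central receptor, fell by nearly the same log2-fold change (-0.77 ± 0.062, beside -0.76 ± 0.058 for TOMM70). TOMM20, the receptor for presequences, was at 72.4, 77.0 and 70.6 FPKM under normoxia and at 71.0, 71.3 and 74.4 under hypoxia. These libraries overlapped, and the 95% confidence interval of its log2-fold change, -0.19 to 0.05, did not reach the values of TOMM22 or TOMM70. TOMM6, another small subunit, fell with a log2-fold change of -0.71 ± 0.059. TOMM7, the small subunit that governs how firmly the complex is assembled, had the highest level of the 37 genes in both conditions, with 644, 654 and 677 FPKM under normoxia and 745, 672 and 741 under hypoxia. Hypoxia replicate 2 lay among the normoxia libraries while the other hypoxia replicates lay above them, and the interval ran from -0.04 to 0.20 on the log2 scale (adjusted p = 0.198). Leaving out that library brought TOMM7 past the threshold as higher, with a log2-fold change of 0.14 (adjusted p = 0.0292), while leaving out replicate 1 of normoxia or replicate 1 or 3 of hypoxia brought it down to 0.041, 0.047 and 0.047 (adjusted p = 0.586, 0.523 and 0.538). TOMM20L, a relative of TOMM20, had 1, 4 and 0 counts under normoxia and 0, 3 and 1 under hypoxia and was not tested.

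**Figure D2:**
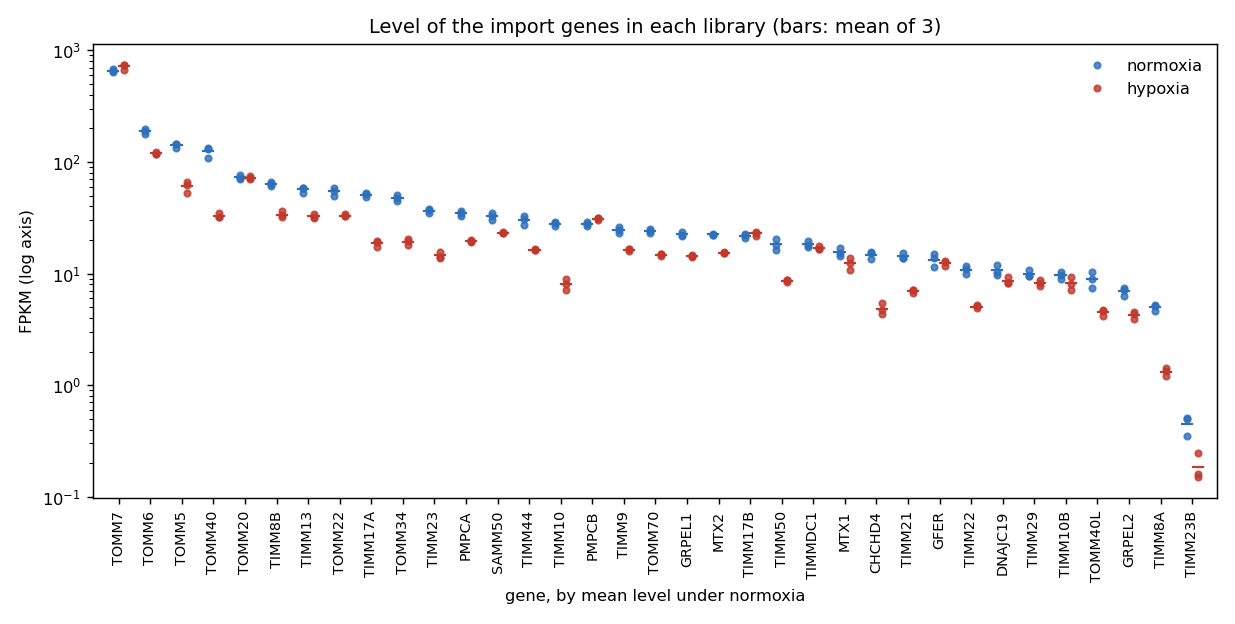
FPKM of each of the 35 tested import genes in each library on a log axis, normoxia in blue and hypoxia in red, with a bar at the mean of 3 libraries, and genes ordered along the horizontal axis by their mean under normoxia. TOMM7 stands highest in both conditions (644 to 677 FPKM under normoxia) and TIMM23B lowest, and the red points lie below the blue ones for most genes, with TOMM20, TOMM7, PMPCB and TIMM17B among those that do not.

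The SAM complex and its metaxin partners fell in 3 of 3 genes, with a median log2-fold change of -0.55. SAMM50, the core that inserts barrel proteins into the outer membrane, was at 33.1, 34.7 and 30.4 FPKM under normoxia and 23.0, 23.1 and 23.3 under hypoxia, without overlap. Its log2-fold change was -0.55 ± 0.066, that of MTX2 was -0.58 ± 0.068 and that of MTX1 was -0.39 ± 0.097, the metaxins being the subunits of SAM that face the cytosol.

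All 8 genes of the small TIM chaperones and the TIM22 complex fell, with a median log2-fold change of -0.91, over a range from -1.97 to -0.29. TIMM8A, whose loss causes a syndrome of deafness and dystonia, was at 5.15, 5.26 and 4.62 FPKM under normoxia and 1.34, 1.43 and 1.21 under hypoxia. TIMM10, which forms a ring with TIMM9 that carries hydrophobic precursors across the intermembrane space, was at 28.1, 29.1 and 26.9 FPKM under normoxia and 8.03, 7.14 and 8.85 under hypoxia. Both sets of libraries were far apart, and TIMM8A fell 3.91-fold and TIMM10 3.62-fold (log2-fold changes of -1.97 ± 0.12 and -1.86 ± 0.088, adjusted p = 1.57e-10 and 4.11e-12). The partners of these genes had smaller log2-fold changes. TIMM9 changed by -0.64 ± 0.080 on the log2 scale, TIMM13, the partner of TIMM8A, by -0.86 ± 0.062, and TIMM8B, the relative of TIMM8A, by -0.96 ± 0.071. TIMM22, the pore through which carriers enter the inner membrane, was at 10.9, 11.6 and 9.94 FPKM under normoxia and 5.17, 4.92 and 5.07 under hypoxia, and fell by a log2-fold change of -1.15 ± 0.084. The TIM22 subunits TIMM29 and TIMM10B had the smallest changes of the 8, -0.32 ± 0.11 (adjusted p = 0.0124) and -0.29 ± 0.090 (adjusted p = 0.0077). TIMM10B was at 10.2, 8.98 and 9.71 FPKM under normoxia and 7.18, 9.30 and 7.99 under hypoxia, where hypoxia replicate 2 lay above normoxia replicate 2 although the CPM of the conditions did not overlap. The call of TIMM29 was lost without hypoxia replicate 2 or without normoxia replicate 2 (adjusted p = 0.0553 and 0.0562).

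In the TIM23 complex, 5 of 6 genes fell, each by a log2-fold change beyond -1, and the median of the 6 was -1.23. TIMM23, the channel for presequence proteins, was at 37.7, 36.8 and 34.8 FPKM under normoxia and 13.9, 14.1 and 15.6 under hypoxia. TIMM17A, a channel subunit, was at 48.5, 52.6 and 51.8 FPKM under normoxia and 19.6, 17.4 and 19.3 under hypoxia. In both genes each hypoxia library was below each normoxia library by a wide margin, and the log2-fold changes were -1.37 ± 0.077 and -1.49 ± 0.069 (adjusted p = 3.34e-11 and 3.37e-12). TIMM17B, the paralogue of TIMM17A that takes the same place in the complex, was at 22.3, 20.8 and 22.5 FPKM under normoxia and 23.6, 23.3 and 21.9 under hypoxia. Here the conditions overlapped, and the 95% confidence interval of the log2-fold change was -0.14 to 0.18. TIMM50, the receptor that hands proteins from TOM to TIM23, fell by a log2-fold change of -1.14 ± 0.077, and TIMM21, which links TIM23 to TOM and to the respiratory chain, by -1.07 ± 0.075. TIMM23B, a near copy of TIMM23, was at 0.495, 0.352 and 0.508 FPKM under normoxia and 0.159, 0.244 and 0.149 under hypoxia. Its log2-fold change of -1.32 ± 0.37 (adjusted p = 0.00394) rested on few reads (46, 26 and 38 counts under normoxia and 12, 22 and 12 under hypoxia) and is uncertain, since the counting may have divided reads between the copies. Summing the counts of both left the log2-fold change of TIMM23 at -1.37. In limma on log2(FPKM + 1) without a filter, TIMM23B changed by -0.29 (adjusted p = 0.00792), a scale on which the added 1 exceeds its FPKM.

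Of the import motor, all 4 tested genes fell. TIMM44, which tethers the chaperone HSPA9 to the channel, was at 33.1, 31.0 and 27.0 FPKM under normoxia and 16.4, 16.4 and 16.4 under hypoxia, and its log2-fold change was -0.94 ± 0.073. The nucleotide exchange factors GRPEL1 and GRPEL2 changed by -0.70 ± 0.060 and -0.76 ± 0.093, and DNAJC19, the J-protein that stimulates HSPA9, by -0.35 ± 0.10 (adjusted p = 0.00428, but 0.0551 in limma on log2(FPKM + 1) without a filter). HSPA9 itself, the ATPase of the motor and a gene outside the rule, was at 133, 139 and 123 FPKM under normoxia and 58.0, 54.0 and 57.7 under hypoxia. No library of one condition came near the other, and HSPA9 fell by a log2-fold change of -1.27 (adjusted p = 4.44e-12). PAM16, the J-like partner of DNAJC19, had 4, 0 and 5 counts under normoxia and 8, 10 and 9 under hypoxia. It did not pass the filter, and 522 of its 2383 exon bases are shared with the read-through gene CORO7-PAM16 in GENCODE v29. The part of this overlap in its low count was not tested.

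Of the subunits of the matrix processing peptidase, 1 fell and 1 did not pass the test. PMPCA, the subunit that recognises substrates, was at 36.0, 35.0 and 33.1 FPKM under normoxia and 20.1, 19.1 and 19.6 under hypoxia, and fell by a log2-fold change of -0.87 ± 0.056 (adjusted p = 2.06e-10). PMPCB, the catalytic subunit, was at 29, 27.6 and 26.7 FPKM under normoxia and 31.2, 31.3 and 30.2 under hypoxia. Each hypoxia library was slightly above each normoxia library, with a log2-fold change of 0.11 and an interval whose lower end was next to 0 (-5.4e-05 to 0.22, adjusted p = 0.0633). On FPKM, limma called PMPCB higher (0.15 on the log2(FPKM + 1) scale, adjusted p = 0.0248), whereas in edgeR its log2-fold change was 0.062 without normoxia replicate 3 (adjusted p = 0.293) and 0.068 without a filter on low counts (0.342). PMPCB shares 628 of its exon bases (13.0%) with DNAJC2 on the opposite strand, which had 3604, 3066 and 2716 counts under normoxia and 1075, 1255 and 1117 under hypoxia, and whether the counting used the strand is not given in the sources used here.

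The MIA relay also had 1 gene on each side of the call. CHCHD4, the oxidoreductase that forms the disulfide bonds, was at 15.2, 15.4 and 13.6 FPKM under normoxia and 5.39, 4.36 and 4.74 under hypoxia, and fell 3.16-fold (log2-fold change of -1.66 ± 0.11, adjusted p = 2.01e-10). GFER, the sulfhydryl oxidase that regenerates CHCHD4, was at 14.9, 13.7 and 11.4 FPKM under normoxia and 11.7, 13.1 and 12.8 under hypoxia, with normoxia replicate 3 below all hypoxia libraries in FPKM. In CPM, normoxia replicate 3 was next to hypoxia replicate 1 and slightly above it (27.38 and 27.35). The interval of GFER was -0.33 to 0.05 on the log2 scale (adjusted p = 0.156), and without normoxia replicate 3 GFER passed as lower (-0.26, adjusted p = 0.00315). A pair of genes that carry the family names but act elsewhere also fell. TOMM34, a cytosolic co-chaperone, was at 47.9, 50.2 and 44.4 FPKM under normoxia and 20.2, 17.9 and 19.6 under hypoxia, with a log2-fold change of -1.35 ± 0.068. TIMMDC1, an assembly factor of respiratory complex I, had a log2-fold change of -0.15 ± 0.065 at an adjusted p of 0.0461. This call was lost when replicate 1 or 2 of hypoxia or replicate 1 of normoxia was left out (adjusted p = 0.0965, 0.135 and 0.153).

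Related genes were then compared within each library, as a ratio of their counts, which needs no scaling between libraries. Of the 8 pairs tested, 4 had a ratio that was lower in all hypoxia libraries than in any normoxia one. The share for pairs of other genes is not given here. Among single genes tested, 39.9% lay below without overlap in CPM and 40.6% above, so a separated ratio is not particular to these pairs. There were 3.26, 3.79 and 3.46 counts of TIMM17A per count of TIMM17B under normoxia and 1.25, 1.12 and 1.33 under hypoxia, so that TIMM17A went from clearly ahead to near parity in counts. In FPKM, which is scaled to gene length, TIMM17A was above TIMM17B in every normoxia library and below it in every hypoxia library. The mean log2 ratio differed by -1.51 in TIMM17A over TIMM17B, by -1.0 in TIMM8A over TIMM8B, by -0.98 in PMPCA over PMPCB and by -0.93 in TOMM40 over TOMM40L. Each of these 4 gave p = 0.1 in the two-sided exact permutation test, the smallest that 3 against 3 libraries allow, and 0.2 after Benjamini-Hochberg adjustment over the 8 pairs, so none could pass 0.05. The conditions overlapped in the other pairs, which were GRPEL1 over GRPEL2 (0.06), MTX1 over MTX2 (0.19), DNAJC19 over its relative DNAJC15 (-0.07) and TIMM23 over TIMM23B (-0.05).

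**Figure D3:**
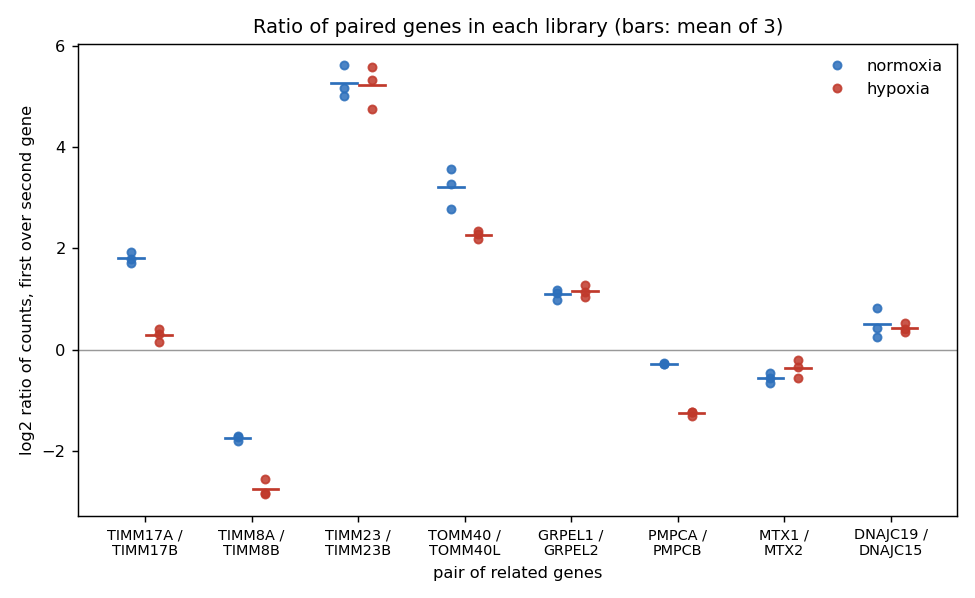
Log2 ratio of the counts of 8 pairs of related genes in each library, first gene over second, normoxia in blue and hypoxia in red, with a bar at the mean of 3 libraries. The conditions stand apart in TIMM17A over TIMM17B (difference of -1.51), TIMM8A over TIMM8B (-1.0), TOMM40 over TOMM40L (-0.93) and PMPCA over PMPCB (-0.98), and overlap in the other 4 pairs.

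Summed over the 37 genes, FPKM came to 0.467, 0.460 and 0.444% of the summed FPKM of all genes in the normoxia libraries and to 0.353, 0.336 and 0.349% in the hypoxia libraries. The means were 0.457 ± 0.012 and 0.346 ± 0.0089% (SD, n = 3 each), without overlap, and no test was made on this sum. TOMM7 held a large share of it. Without TOMM7 the sum was 0.300 ± 0.015% under normoxia and 0.173 ± 0.0018% under hypoxia.

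Other mitochondrial gene lists were counted in the same fit for comparison. Among 14 import genes outside the rule, 10 fell, 2 rose and 2 were not called (median -0.47). In this list BCS1L, the AAA protein that inserts the Rieske iron-sulfur subunit, had the largest fall (-1.72) and IMMP2L, a subunit of the inner membrane peptidase, the largest rise (0.66), while DNAJC15 fell by a log2-fold change of -0.28 (adjusted p = 0.0476) although its libraries overlapped between conditions. The call of DNAJC15 was lost with replicate 1 or 2 of hypoxia or replicate 2 of normoxia left out (adjusted p = 0.169, 0.0999 and 0.253, with a log2-fold change of -0.16 in the last case) and with the DESeq2 Wald test (0.0609), by which 9 of the 14 genes fell, and where 10 or more counts were required in all libraries (0.147). Of 11 matrix chaperones and mitochondrial proteases, 8 fell and 1 rose (median -0.48), from HSPE1, the co-chaperonin, at -1.25 to SPG7, an inner membrane protease, at 0.18. The rise of SPG7 was lost with replicate 1 or 3 of hypoxia or replicate 2 of normoxia left out (adjusted p = 0.0657, 0.0537 and 0.159, with a log2-fold change of 0.10 in the last case) and without a filter on low counts (0.0633). Of 7 MICOS genes, which shape the cristae, 5 fell and 0 rose, also at an unadjusted p under 0.05 in edgeR and in DESeq2 (median -0.37), led by CHCHD3 at -0.76. Of 78 mitochondrial ribosomal protein genes, 69 fell, 1 rose (MRPS6, 0.61) and 8 were not called. Their median of -0.68 and the 88.5% that fell were near those of the import genes (-0.77 and 85.7%), and MRPL15 was lowest at -1.66.

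The clients of the import routes were also counted. Of 13 proteins with the twin CX9C motif, which CHCHD4 oxidises, 10 fell and 2 rose (median -0.53), with TRIAP1, a lipid transfer subunit, at -1.38 and COA5, a cytochrome oxidase assembly factor, at 0.84. Of 10 SLC25 carriers, which enter through TIM22, 6 fell, 1 rose (2 by DESeq2) and 3 were not called (median -0.65), where SLC25A10, the dicarboxylate carrier, was at -1.08 and SLC25A1, the citrate carrier, at 0.96. Of 10 tested regulators of mitochondrial biogenesis, 8 fell and 1 rose (median -0.80). PPARGC1B, a coactivator of mitochondrial genes, had the largest fall (-3.06), and TFB1M, a methyltransferase of mitochondrial ribosomal RNA, was the one that rose (0.32). MYC, a transcription factor with many targets in ribosome and mitochondrial biogenesis, had 9315, 7317 and 7708 counts under normoxia and 1306, 1048 and 1091 under hypoxia. These did not approach each other, and MYC fell by a log2-fold change of -2.88 (adjusted p = 1.3e-13). In a list of 8 genes (mitophagy genes, porins and CYC1), 5 fell and 3 rose, from CYC1, the cytochrome c1 of complex III, at -1.0 to the mitophagy receptor BNIP3L at 2.62.

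**Figure D4:**
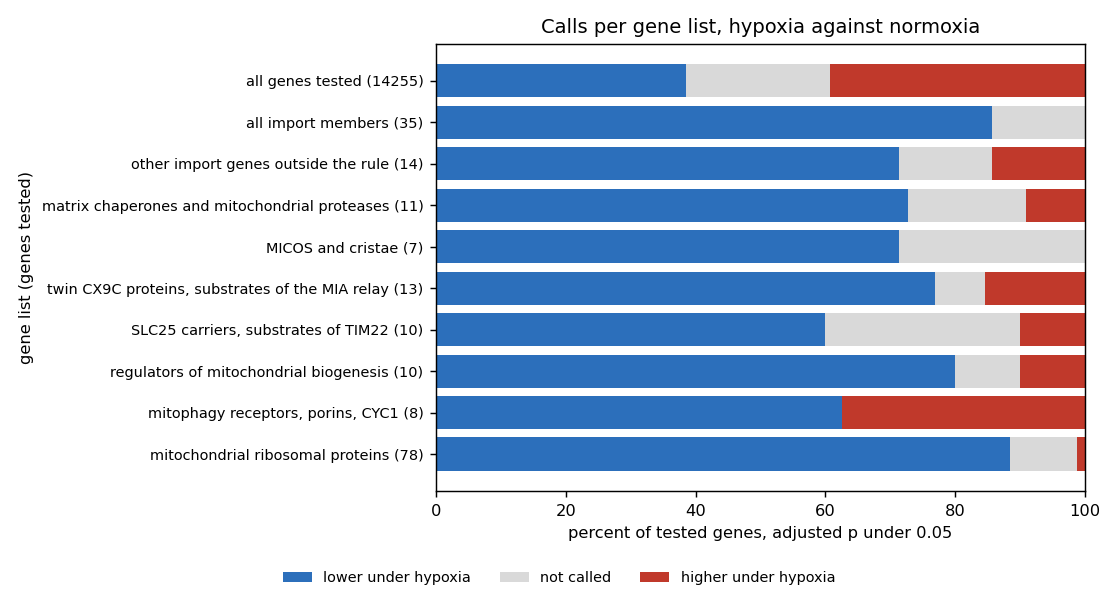
Percent of the tested genes in each list that were lower (blue), not called (grey) or higher (red) under hypoxia, at an adjusted p under 0.05 in edgeR's quasi-likelihood test, with the number of genes tested in parentheses. All genes tested divide into 38.5% lower and 39.2% higher, whereas 85.7% of the import genes and 88.5% of the mitochondrial ribosomal protein genes are lower.

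The labels were set beside genes that respond to low oxygen and beside markers of cell types. All 15 genes of a hypoxia response list rose (median of 2.71) and 0 fell, where 39.2% of all genes tested rose. The same counts held by DESeq2 and at an unadjusted p under 0.05 in edgeR. Among the 15 were VEGFA (2.80), CA9 (2.71) and EGLN3 (6.69), which encode an angiogenic factor, a carbonic anhydrase and an oxygen sensor. The list came from an earlier account of these data, so it was no independent check of the labels. Of 12 squamous epithelial markers, 11 had at least 10 counts in every library, while KRT14, a defining basal keratin, had 0, 0 and 0 counts under hypoxia and 0, 1 and 0 under normoxia. The summed FPKM of the 12 was 463, 458 and 492 under normoxia and 608, 621 and 612 under hypoxia. The markers did not move together. All hypoxia libraries were above all normoxia ones for 7 of the 12, among them ITGB4 (39.0, 39.1 and 51.3 FPKM under normoxia, 166, 192 and 173 under hypoxia) and CDH1 (37.4, 35.7 and 40.5, against 98.1, 102 and 99.2), and below them for 3, KRT5, SFN (159, 158 and 155, against 97.8, 87.5 and 95.1) and KRT6A (8.08, 7.85 and 5.14, against 0.258, 0.336 and 0.658). Among all genes tested, 40.6% lay above without overlap in CPM and 39.9% below. Fibroblast, endothelial and leukocyte markers together never summed to more than a few FPKM per list. The 6 fibroblast markers summed to 0.686, 0.516 and 0.959 FPKM under normoxia and 3.96, 3.30 and 2.96 under hypoxia, mostly COL1A1, with COL3A1 at 0 counts in every normoxia library. The 4 leukocyte markers summed to 0.547, 0.492 and 0.974 FPKM under normoxia and 3.98, 3.47 and 3.5 under hypoxia, mostly CD14, with PTPRC, which marks all leukocytes, at 0 to 2 counts. The 3 endothelial markers summed to 0.0659, 0.0737 and 0.178 FPKM under normoxia and 0.317, 0.251 and 0.312 under hypoxia. Every hypoxia library was above every normoxia one for 3 of 3, at 34 counts or fewer in each library. Genes with at least 1 read numbered 17505, 17128 and 17378 in the normoxia libraries and 18841, 18996 and 18766 in the hypoxia libraries. The part of these markers and of this number of genes in the fall of the import genes was not tested.

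Reads could also be shared with neighbouring genes. In GENCODE v29, 17 of the 37 genes share exon bases with another gene of the count table. TIMM8B shares 351 of 1166 exon bases with NKAPD1 and TOMM40L shares 661 of 3289 with NR1I3, both on the opposite strand. NR1I3 had 1 count in all 6 libraries together, whereas NKAPD1 had 984, 750 and 755 counts under normoxia and 697, 881 and 760 under hypoxia. Some neighbours were higher under hypoxia. MTX1 shares 146 of 3278 bases with THBS3 on the opposite strand. THBS3 had 175, 93 and 157 counts under normoxia and 1024, 1186 and 998 under hypoxia. SAMM50 shares 148 of 6435 with PNPLA3 on the same strand, at 488, 316 and 446 counts under normoxia and 892, 947 and 795 under hypoxia. TIMM13 shares 257 bases with LMNB2 on the same strand, which had 28387, 22523 and 22396 counts under normoxia and 13602, 14475 and 13507 under hypoxia, more than TIMM13 itself in every library and lower under hypoxia as TIMM13 was. All 637 exon bases of TOMM6 are shared on the same strand with AL365205.1, which was not analysed here. The part of such reads in the values above was not tested.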

How the data were processed

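Human RNA-seq libraries of SCC25, 3 under hypoxia and 3 under normoxia, were grouped by the sample labels. The authors deposited whole-number counts per gene for 21776 genes, not normalized, which are named by symbol and Entrez number. They also deposited FPKM of the same genes, which could be recomputed from the counts, a gene length and the total count for all genes but 1, not an import gene. The submitters' processing notes list only the mouse builds GRCm38 and mm10, while the table holds human symbols. The aligner, the counting tool, the annotation and the strand setting are not given in the sources used here, so the coordinates printed are those of RefSeq promoters. The lists of other genes, like the import genes, were chosen with earlier results of these data known.

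The test on counts was that of edgeR 4.0.16 under R 4.3.3 (filterByExpr, TMM, glmQLFit and glmQLFTest, condition as the only term), and Benjamini-Hochberg adjustment ran over all 14255 genes tested at 0.05. For CPM, counts were divided by library totals adjusted by TMM. Paralogue ratios used a pseudocount of 0.5 and a two-sided exact permutation test over libraries. Counts of 29637189 to 37278703 per library left 2 import genes below the filter, and as replicates differed beyond counting error (a chi-square of 5.12 to 11.1 for each gene on average), all 6 libraries were kept as separate replicates. Alternatives were DESeq2 size factors, the DESeq2 1.42.0 Wald test, no filter, at least 10 counts in every library, a replicate block, each library left out, limma 3.58.1 on log2(FPKM + 1) or log2(FPKM + 0.1), a pseudocount of 1, summed counts of near copies and the import share without TOMM7. The sum that included TIMM23B-AGAP6 and the counts of import genes called by limma were additions made with the data already seen.

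All import genes are named, with the largest rise and fall in each other list, HSPA9, DNAJC15 and MYC, and VEGFA, CA9 and EGLN3 for the labels. Neighbouring genes and the cell type markers singled out were chosen after their values were seen. Tested on simulated data of this comparison (14246 genes), edgeR recovered 85 of 87 genes changed by 0.5 on the log2 scale and 113 of 113 changed by 1, with 5.71% of its calls false. The changed genes of the simulation were few and well covered, went in both directions and shared the same dispersion. In the real data 77.8% of genes were called, and the simulation does not speak for genes of few counts such as TIMM23B. Promoters were read from RefSeq tables of GRCh38.p14 and exons from GENCODE v29.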

Additional observations from a re-analysis of the deposited data

How the results depend on the processing

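Across the alternatives on counts, 28 to 31 import genes fell and between 9967 and 11920 genes of all were called, and in the 3 limma fits on FPKM 27 or 28 import genes fell. Over the 35 import genes, 201 of 210 values with 1 library left out and 261 of 280 values under other settings kept their direction and their side of the threshold. A pair of genes that were not called changed sign near 0. The log2-fold change of TIMM17B was -0.022 without a filter and ran from -0.010 (without hypoxia replicate 1 or normoxia replicate 2) to 0.039 with 1 library left out, and that of TOMM20 was 0.0079 when 10 or more counts were required. The number that rose was 1 in both limma fits with a filter (PMPCB), 2 in that without one (PMPCB and PAM16) and 2 (TOMM7 and PMPCB) when 10 or more counts were required in all libraries, where the median log2-fold change was -0.69, and was 0 to 1 with 1 library left out, the 1 being TOMM7 without hypoxia replicate 2. The median ranged from -0.85 (without normoxia replicate 3) to -0.76 with 1 library left out. TIMMDC1 was also lost with DESeq2 size factors (adjusted p = 0.0529), the DESeq2 Wald test (0.0786), the requirement of 10 counts (0.316) and in the 3 fits of FPKM with limma (0.17 to 0.189), TIMM29 under the same requirement (0.0505), and TIMM10B in 2 of the fits of FPKM (0.0596 and 0.116) and DNAJC19 in 1 (0.0551), while GFER passed as lower without a filter (0.0456). Without TOMM7 the import share was 0.300% under normoxia and 0.173% under hypoxia, and the cause of these changes other than the genes or libraries left out was not tested. With 1 library left out, the difference in the log2 ratio ranged from -0.23 to 0.19 for TIMM23 over TIMM23B (above 0 without hypoxia replicate 2 or, at 0.13, normoxia replicate 2), from -0.0013 (without hypoxia replicate 2) to 0.11 for GRPEL1 over GRPEL2, and from -0.20 to 0.096 (without normoxia replicate 1) for DNAJC19 over DNAJC15. For MTX1 over MTX2 the same difference ranged from 0.11 to 0.29 with 1 library left out. The sum of PAM16 and CORO7-PAM16 could not be made, as the table used here has no row for the latter. At these depths, genes such as TIMM23B, PAM16 and TOMM20L were the ones limited by few counts.

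Replicate numbers did not pair the libraries, since deviations of same-numbered libraries had correlations of 0.0175, -0.069 and 0.0012. With the replicate block, 10875 genes were called in place of 11090 and 29 import genes fell, TIMMDC1 being the one lost (adjusted p = 0.0679).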
